A study of Homo sapiens with 6 samples.

Results

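The IFIT and IFITM genes are interferon-induced families of antiviral proteins, and 7 of their members were followed here across a knockdown of NONO. The members were chosen by name, as IFIT1, IFIT2, IFIT3, IFIT5, IFITM1, IFITM2 and IFITM3, out of 62492 genes listed, and all 7 were among the 17000 genes with enough counts for a test. RNA-seq was performed on polyadenylated RNA of HCT116, a human colorectal carcinoma line, transfected with siRNA at 20 nM using lipofectamine RNAiMAX. Control siRNA (siControl, labelled WT) was compared with siRNA against NONO (siNONO, labelled NONO knockdown), an RNA-binding protein of paraspeckles, and 1 library of each group came from each of Sets 1, 2 and 3. The labels do not say whether the Sets were separate cultures, so the spread behind the p-values may be technical. The p-values rest on the spread left once the Set is taken out, with variance estimates shared in part across genes. They do not measure the spread of each gene alone. A single siNONO duplex was used, so loss of NONO and any other effect of that duplex cannot be told apart, and both groups are bulk samples of 1 line.

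IFIT proteins are built of tetratricopeptide repeats and bind RNA in the cytoplasm. IFIT1 recognises messenger RNA whose cap lacks a methyl mark found on the cell's own transcripts and blocks its translation, IFIT3 stabilises IFIT1 and strengthens its binding, IFIT2 joins them in complexes, and IFIT5 acts largely alone on RNA with phosphate ends. IFITM proteins sit in membranes and hinder the fusion of virus with the cell, IFITM1 mainly at the cell surface, and IFITM2 and IFITM3 mainly in endosomes. In epithelial cells both families are induced when type I or type III interferon activates transcription factors that bind interferon-stimulated response elements (ISRE) in promoters.

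The members lie in a pair of clusters. On GRCh37, in the gene models of the deposited transcripts, IFIT2 spans 91043451 to 91069028 of chromosome 10, followed by IFIT3 from 91087754 to 91100728, IFIT1 from 91152303 to 91166244 and IFIT5 from 91174325 to 91180754, all on the plus strand. On chromosome 11, IFITM2 spans 307631 to 315272 and IFITM1 spans 313506 to 315272, both on the plus strand, and IFITM3 spans 319676 to 327537 on the minus strand. The longest transcript of each member has between 2 and 5 exons.

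RefSeq promoter sequences on GRCh38.p14 were held for 5 members, IFIT1, IFIT3, IFIT5, IFITM1 and IFITM3, with separate starts for IFIT3, which makes 6 windows of 250 bases before and 50 after the start. Promoters of IFIT2 and IFITM2 were not analysed here. Each window was found once on GRCh37, and the stretches printed run from 160 bases before the start to 6 bases from the start onward, which holds every ISRE core found. They are shown because ISRE cores are the feature that the promoters of these members share. Capitals mark the ISRE core, TTTCNNTTTC or its reverse GAAANNGAAA, and every sequence reads from 5′ to 3′ on the strand of its gene. The stretches are chr10:91152220-91152385 for IFIT1, chr10:91087594-91087759 and chr10:91092126-91092291 for the upstream and downstream starts of IFIT3, chr10:91174165-91174330 for IFIT5 and chr11:313880-314045 for IFITM1, all on the plus strand, and chr11:320855-321020 on the minus strand for IFITM3.
IFIT1: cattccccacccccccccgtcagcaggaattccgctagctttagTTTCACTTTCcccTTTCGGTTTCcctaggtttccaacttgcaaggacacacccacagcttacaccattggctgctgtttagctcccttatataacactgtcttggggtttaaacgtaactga
IFIT3, upstream start: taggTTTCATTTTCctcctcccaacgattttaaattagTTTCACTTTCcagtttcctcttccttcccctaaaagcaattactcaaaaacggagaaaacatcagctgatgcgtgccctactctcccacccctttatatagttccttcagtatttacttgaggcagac
IFIT3, downstream start: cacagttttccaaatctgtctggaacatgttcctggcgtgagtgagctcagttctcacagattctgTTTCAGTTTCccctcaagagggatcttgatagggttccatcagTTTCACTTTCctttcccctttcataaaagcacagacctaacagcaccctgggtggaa
IFIT5: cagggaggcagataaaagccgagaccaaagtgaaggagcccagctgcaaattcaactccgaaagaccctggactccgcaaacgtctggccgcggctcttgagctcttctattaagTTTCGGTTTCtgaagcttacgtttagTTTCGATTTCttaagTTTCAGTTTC
IFITM1: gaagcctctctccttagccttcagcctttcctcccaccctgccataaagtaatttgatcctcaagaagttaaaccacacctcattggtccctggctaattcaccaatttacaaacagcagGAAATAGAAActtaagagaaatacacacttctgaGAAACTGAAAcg
IFITM3: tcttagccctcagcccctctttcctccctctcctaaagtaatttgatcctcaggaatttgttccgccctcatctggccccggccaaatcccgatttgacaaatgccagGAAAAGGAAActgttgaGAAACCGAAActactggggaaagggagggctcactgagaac

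Each of the 6 windows held at least 2 ISRE cores, 13 in all, and IFIT5 held the most, with 3. Of 35116 RefSeq promoter windows of the same length, 3.57% held an ISRE core on either strand and 0.259% held 2 or more. Counting the start base as 0, the cores of IFIT1 began at -116 and -103, and those of IFIT3 at -156 and -122 from its upstream start and at -94 and -51 from its downstream start. Those of IFIT5 began at -45, -19 and -4, so that the last ran over the start. In the IFIT windows all cores read TTTCNNTTTC, whereas in IFITM1, at -40 and -6, and in IFITM3, at -52 and -35, they read GAAANNGAAA. The core of a gamma-activated site, TTCNNNGAA, another element of interferon-responsive promoters, was found only in the window of IFITM1, from -12 to -4, where it overlaps the second ISRE core. It was found in 7.66% of all windows. These matches are a description of letters and were not tested as binding sites.

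**Figure D1:**
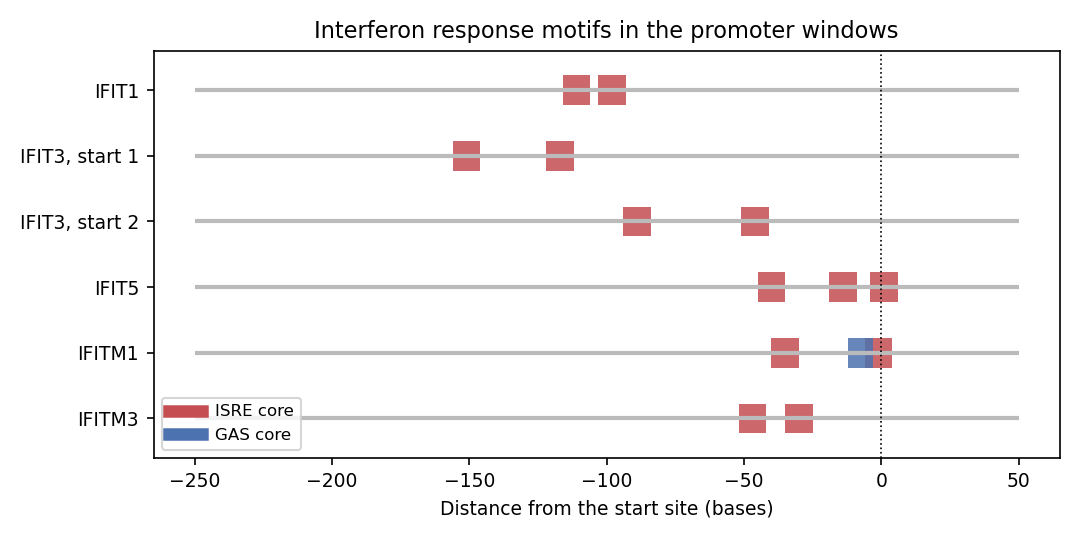
Positions of the ISRE core (red) and of the gamma-activated site core (GAS core, blue) in the promoter windows of 5 members, as distance in bases from the start site (dotted line, 0), with 1 row for each start. Every window holds at least 2 ISRE cores, and those of IFIT1 and of the upstream start of IFIT3 (start 1) lie farther upstream than those of the other windows.

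The targeted gene was examined first. NONO stood at 363.17, 330.39 and 406.59 TPM (a level scaled for transcript length and library size) in siControl of Sets 1, 2 and 3, and at 75.66, 75.53 and 81.67 TPM in siNONO. The groups did not overlap. Its log2 fold change was -2.40 (standard error 0.0337), which leaves 18.9% of the siControl level. Epithelial markers summed to between 2711 and 3007 TPM over the 6 libraries, with 5 of 6 above 1 TPM and CDX1 at 0. In contrast, the 5 leukocyte markers summed to at most 1.13 TPM and the endothelial markers VWF and CDH5 to at most 0.34 TPM. PECAM1, also planned as an endothelial marker, was not found by its symbol. Of 4 fibroblast markers, COL1A1 was above 1 TPM and COL1A2 was at 0, and their sum was between 16.5 and 19.2 TPM in siControl and between 16.3 and 18.4 TPM in siNONO. Total estimated counts ran from 21765393 to 32659002 per library. Because these are bulk samples, a larger share of cells that express a gene and more RNA of it per cell cannot be told apart.

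All 7 members were higher in siNONO, from a fold change of 1.36 for IFITM2 to 20.97 for IFIT1, and in 6 of them the log2 fold change was at least 1. All passed an adjusted p of at most 0.05 in edgeR's quasi-likelihood test, with p-values adjusted by Benjamini-Hochberg across the 17000 genes. That fit is the source of every adjusted p given here, except those of the family sums and of the alternative settings, which had their own fits. Among all genes tested, 23.2% were higher by the same test and 1.62% were higher by at least 1. The median log2 fold change was 2.94 over the 7 members and -0.00 over all genes tested. In TPM, every siNONO library was above every siControl library for all 7 members, a separation that 14.2% of the genes tested had.

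**Figure D2:**
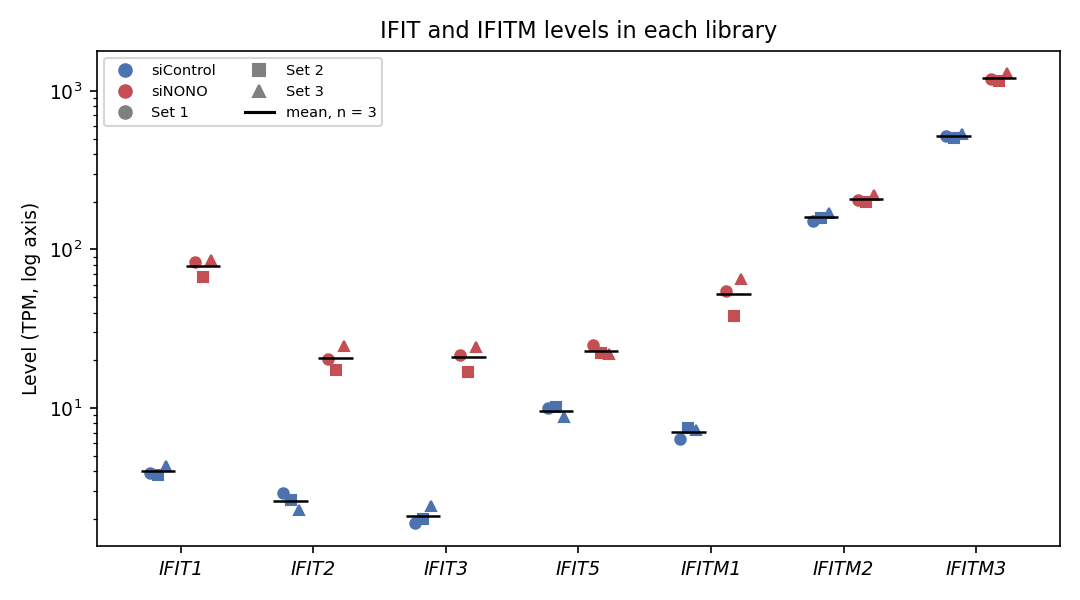
Level of each member in each library (TPM, log axis), siControl in blue and siNONO in red, with the Set given by the shape of the point and the mean of 3 libraries by the black line. The groups do not overlap for any member, and the gap is widest for IFIT1 and narrowest for IFITM2.

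IFIT1, the cap sensor, had the largest change of the members. Its level was 3.90, 3.79 and 4.31 TPM in siControl of Sets 1, 2 and 3 and 82.99, 67.12 and 86.35 TPM in siNONO. Every siNONO library was far above the siControl libraries, and the siNONO library of Set 2 was the lowest of its group. The rise in log2 was 4.39 (standard error 0.0501, adjusted p = 4.03e-14), or 20.97-fold, and ranked 11 of the 17000 genes tested. The estimated counts behind it were 273 to 370 in siControl and 5899 to 7457 in siNONO.

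IFIT3, the partner that stabilises IFIT1, had the lowest mean of the members in siControl, at 1.88, 2.00 and 2.42 TPM, and stood at 21.58, 16.91 and 24.34 TPM in siNONO. The groups did not overlap, and siNONO of Set 2 was again the lowest of its group. This was a rise of 3.41 in log2 (standard error 0.0865, adjusted p = 2.79e-11), or 10.6-fold, on estimated counts of 82 to 95 in siControl and 794 to 1124 in siNONO.

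IFIT2, which forms complexes with IFIT1 and IFIT3, was at 2.91, 2.62 and 2.28 TPM in siControl and 20.25, 17.30 and 24.66 TPM in siNONO. Set 3 held both its lowest siControl level and its highest siNONO level, so the log2 ratio within Set 3 was 3.43, against 2.85 and 2.79 within Sets 1 and 2. Over the 3 Sets the rise in log2 was 3.00 (standard error 0.0955, adjusted p = 1.86e-10), or 7.997-fold. The exons of IFIT2 overlap those of ENSG00000232110 on the same strand and those of LIPA on the opposite strand. ENSG00000232110 had 28.19, 11 and 11.86 estimated counts in siControl and 8.2, 1 and 7 in siNONO. IFIT2 had 108.14 to 198.81 in siControl and 1069 to 1487 in siNONO. How reads were divided between IFIT2 and ENSG00000232110 was not tested. LIPA was higher in siNONO by 0.28 (log2), and whether the counting used the strand is not given in the sources used here.

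IFIT5, which binds RNA with phosphate ends, had the highest siControl level of the IFIT members and the smallest change among them. It was at 10.03, 10.11 and 8.78 TPM in siControl and at 24.86, 22.13 and 21.95 TPM in siNONO. The groups did not overlap, although the gap was narrow beside that of IFIT1. IFIT5 rose by 1.34 in log2 (standard error 0.0510, adjusted p = 8.53e-10), or 2.54-fold, and ranked 164 of 17000.

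Among the membrane proteins, IFITM1, found mainly at the cell surface, changed most. Its level was 6.38, 7.50 and 7.22 TPM in siControl and 54.39, 38.01 and 64.99 TPM in siNONO. The siNONO libraries were all well above siControl but spread widely, with Set 2 the lowest, and its standard error was the largest of the 7 members. The rise was 2.94 in log2 (standard error 0.134, adjusted p = 4.24e-09), or 7.67-fold, on 56.43 to 74.48 estimated counts in siControl and 394.91 to 665.96 in siNONO.

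IFITM3, the endosomal member that restricts influenza virus, was by far the most abundant. It was at 521.52, 505.39 and 531.58 TPM in siControl and 1184.21, 1150.90 and 1291.10 TPM in siNONO. The spread within each group was small beside the gap between the groups. IFITM3 rose by 1.295 in log2 (standard error 0.0322, adjusted p = 2.6e-11), or 2.45-fold. In TPM it gained 689, which was 75.9% of the 908 TPM gained by the 7 members together.

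IFITM2, the close relative of IFITM3, had the smallest change. It was at 150.75, 158.51 and 169.83 TPM in siControl and 204.59, 198.51 and 219.57 TPM in siNONO. The highest siControl library was still below the lowest siNONO library. The rise was 0.44 in log2 (standard error 0.0382, adjusted p = 1.21e-06), or 1.36-fold, and ranked 1696 of 17000, although its gain of 47.9 TPM was larger than the 18.8 TPM gained by IFIT3. Of the 3 siNONO libraries, that of Set 2 had the lowest TPM for 6 of the 7 members and that of Set 3 the highest for 6, with IFIT5 the exception in both.

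To compare the members with each other, their log2 ratios were taken within each Set. IFIT1 had the highest ratio in every Set, at 4.49, 4.23 and 4.42, and IFITM2 the lowest, at 0.48, 0.44 and 0.40. The members fell into a group with ratios from 2.39 to 4.49 (IFIT1, IFIT3, IFIT2 and IFITM1), a pair with ratios from 1.22 to 1.42 (IFIT5 and IFITM3), and IFITM2. Thus the size of the change differed widely within each family. The difference in log2 ratio between IFIT1 and IFIT5 was 3.04 ± 0.0530 (SD, n = 3), and that between IFITM1 and IFITM2 was 2.48 ± 0.471 (SD, n = 3). The difference changed sign among the Sets for 3 of the 21 pairs, namely IFIT2 and IFIT3, IFIT2 and IFITM1, and IFIT5 and IFITM3. These pairs thus had no steady order. An equal sign in all 3 Sets does not by itself place a difference beyond its spread. For IFIT3 and IFITM1, for example, it was 0.470 ± 0.286 (SD, n = 3). With 3 Sets, an exact paired test of a difference could not reach a p of 0.05, so none was run.

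**Figure D3:**
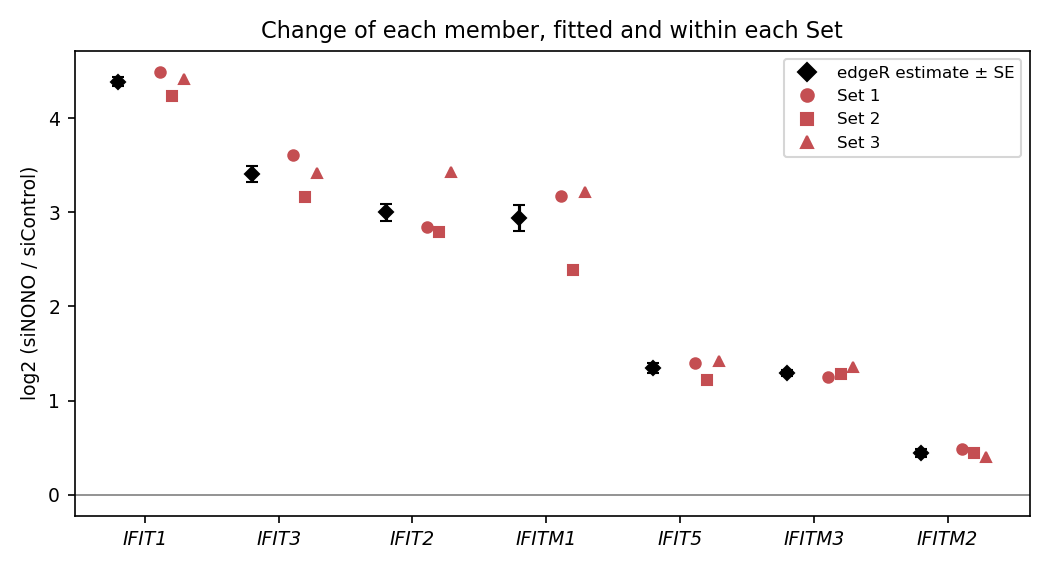
Change of each member as log2 of siNONO over siControl, from the highest to the lowest, with the edgeR estimate and its standard error in black and the ratio within each Set in red (shape gives the Set). IFIT1 is highest and IFITM2 lowest in every Set, IFIT5 and IFITM3 lie side by side, and IFIT2 and IFITM1 spread most among the Sets.

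The order of the levels, in TPM, also differed between the groups. In siControl it ran from IFITM3 through IFITM2, IFIT5, IFITM1 and IFIT1 to IFIT2 and IFIT3, and only the last pair overlapped. In siNONO it ran from IFITM3 through IFITM2, IFIT1 and IFITM1 to IFIT5, IFIT3 and IFIT2, whose ranges overlapped. IFIT1 thus stood below IFIT5 and IFITM1 in siControl and above both in siNONO.

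As a family, the IFIT members summed to 18.3 ± 0.490 TPM (SD, n = 3) in siControl and 143 ± 17.8 TPM (SD, n = 3) in siNONO. The IFITM members summed to 686 ± 19.7 TPM (SD, n = 3) and 1469 ± 96.7 TPM (SD, n = 3). With the counts of a family summed to 1 value per library before the fit, so that reads divided among its members do not matter, the IFIT sum had a log2 fold change of 3.06 (standard error 0.0573, adjusted p = 2.8e-12) and the IFITM sum 1.15 (standard error 0.0301, adjusted p = 4.09e-11). These were 8.33-fold and 2.21-fold.

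The makeup of each family shifted. IFIT5 made up 52.5% ± 2.78 (SD, n = 3) of the IFIT sum in siControl and 16.2% ± 2.02 (SD, n = 3) in siNONO, while IFIT1 went from 21.8% ± 2.07 (SD, n = 3) to 54.9% ± 0.540 (SD, n = 3). IFIT3 went from 11.5% ± 1.88 (SD, n = 3) to 14.5% ± 0.894 (SD, n = 3). The shares of IFIT1, IFIT3 and IFIT5 did not overlap between the groups, although for IFIT3 the gap was only from 13.6% to 13.7%. IFIT2 held nearly the same share, 14.2% and 14.4%, with overlapping values. Of the IFITM sum, IFITM3 made up 75.7% ± 0.991 (SD, n = 3) and 82.3% ± 0.554 (SD, n = 3), IFITM2 23.3% ± 0.926 (SD, n = 3) and 14.1% ± 0.189 (SD, n = 3), and IFITM1 1.03% ± 0.0887 (SD, n = 3) and 3.54% ± 0.719 (SD, n = 3). None of these 3 shares overlapped between the groups. The shares within a family are bound to each other and restate the changes of its members. Those of IFIT5 and IFITM2 fell although their levels in TPM rose.

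**Figure D4:**
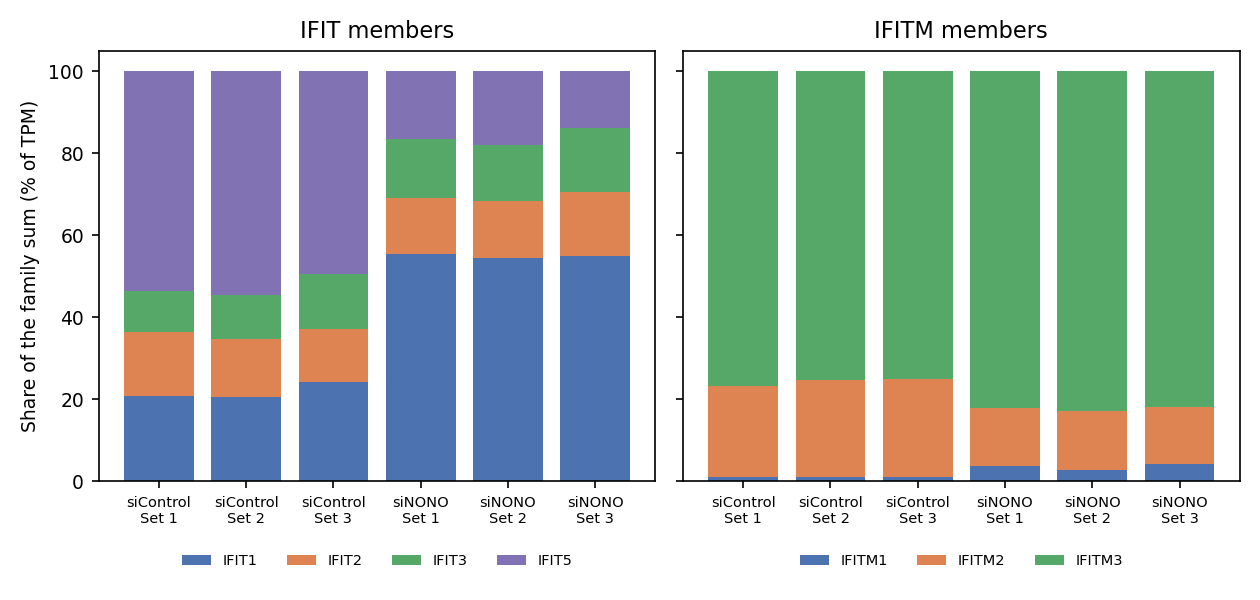
Share of each member in the TPM sum of its family (%), with 1 stacked bar per library, IFIT members at left and IFITM members at right. IFIT1 takes over from IFIT5 as the main part of the IFIT sum in all 3 siNONO libraries, while IFITM3 is the main part of the IFITM sum in all 6.

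How far these values depend on the division of reads between similar genes differed between the families. RSEM shares a read that fits several genes among them, which leaves counts that are not whole. The counts of IFIT1, IFIT3 and IFIT5 were whole, within 0.005, in all 6 libraries and those of IFIT2 in 3, whereas those of IFITM1, IFITM2 and IFITM3 were whole in 0 of 6. In the longest transcript of IFITM1, 38.9% of 50-base windows also occurred in a transcript of another gene, and 35.5% occurred in IFITM2, of which an annotated transcript runs over IFITM1. The share was 10% for IFITM2, 19.7% for IFITM3, 8.4% for IFIT2, 2.66% for IFIT3, 1.03% for IFIT1 and 0% for IFIT5. Each share is for the longest transcript alone. In that of IFITM2, 50 windows occurred in IFITM1, whereas 282 windows of IFITM1 occurred in a transcript of IFITM2. The 10% may therefore understate what IFITM2 shares. The separate values of the 3 IFITM members are therefore less certain than their sum.

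The mean transcript length that RSEM reports for a gene is weighted by the abundance of its transcripts, so it moves with the mix of isoforms. For IFIT2, which has 3 transcripts of 2497 to 3703 bases in the files, it was 3157, 3137 and 3274 bases in siControl and 3089, 3087 and 3068 bases in siNONO. All siNONO values were below all siControl values, and the mean fell by 108 bases (exact permutation test, two-sided, p = 0.1, the smallest that 3 against 3 libraries allow). That test did not use the pairing by Set. Such a separation was seen in 13.6% of the 14129 genes whose length varied, so its presence in IFIT2 alone is not read as particular to the members. IFIT5 has 1 transcript, and the lengths of the other 5 members overlapped between the groups.

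To place the members in their pathway, 19 genes that sense viral RNA or that carry or restrain the interferon signal were examined. Of these, 9 were higher, 1 was lower and 9 did not pass the test. Whether their changes came before or after those of the members was not tested. Among all genes tested, 23.2% were higher and 23.4% were lower. By at least 1, 6 of the 19 were higher, beside 1.62% of all genes tested. Over the list the median log2 fold change was 0.20, against -0.00 over all genes tested. Under the 15 alternative settings given below, from 7 to 10 of the 19 were higher. IRF9, which gives the ISRE-binding complex its contact with DNA, went from 18.7 ± 2.38 TPM to 65.7 ± 3.39 TPM (SD, n = 3), a log2 fold change of 2.05 (standard error 0.0551, adjusted p = 4.29e-11). STAT2, which acts with IRF9, rose by 0.92 on the log2 scale. Among the sensors of viral RNA, RIGI rose by 2.82 and IFIH1 by 2.61 on the log2 scale, and DHX58, their regulator, rose by 1.74. The largest change was that of IRF7, a transcription factor of interferon genes, from 7.76 ± 0.666 to 56.5 ± 12.0 TPM (SD, n = 3), with a log2 fold change of 3.14 (standard error 0.0789, adjusted p = 2.68e-11). USP18, which restrains signalling at the receptor, rose by 2.27, whereas SOCS1, which also restrains it, did not pass the test (-0.14, adjusted p = 0.316).

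The receptors and relay proteins of the same list changed little or did not pass the test. IFNAR1, a subunit of the type I receptor, was the 1 gene lower, at -0.27 (standard error 0.0446, adjusted p = 0.000311). The smallest of the increases was that of TYK2, a receptor kinase, at 0.20 (standard error 0.0463, adjusted p = 0.00313). MAVS, which relays the signal of RIGI and IFIH1, had a log2 fold change of 0.00 (adjusted p = 0.979), and IRF3, the factor it activates, 0.03 (adjusted p = 0.614).

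Genes whose proteins act with the IFIT or IFITM proteins or on the RNA ends they bind were examined next. Of 15, 5 were higher, 2 were lower and 8 did not pass the test, beside 23.2% higher and 23.4% lower among all genes tested. Their median log2 fold change was 0.05, against -0.00 over all genes tested, and 0 were higher by at least 1. MAVS and TBK1 were also in the signalling list. The largest increase was that of CMTR1, the enzyme that places the cap mark whose absence IFIT1 recognises, from 21.2 ± 0.776 to 32.7 ± 2.61 TPM (SD, n = 3). Its rise in log2 was 0.74 (standard error 0.0460, adjusted p = 6.61e-08). NEDD4, a ubiquitin ligase of IFITM3, was higher by 0.30, and SETD7, a methyltransferase of IFITM3, by 0.13. STING1, an adaptor of DNA sensing, fell by 0.67 on the log2 scale (standard error 0.0567, adjusted p = 9.87e-07), and ZDHHC20, which palmitoylates IFITM3, fell by 0.21. ZMPSTE24, a partner of the IFITM proteins, did not pass the test (0.05, adjusted p = 0.293). Without the Set as a block 3 of the 15 were higher and 1 was lower, and limma on log2(TPM + 1) called 1 higher.

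The genes that flank the clusters were examined to see whether changes ran along the chromosome. Of 7 neighbours of the IFIT cluster, 5 were tested, with 3 higher, 1 lower and a median log2 fold change of 0.28, below all 4 IFIT members. Over all genes tested, 23.2% were higher, 23.4% were lower and the median was -0.00. ACTA2, smooth muscle actin, rose by 1.303 in log2 (standard error 0.114, adjusted p = 1.34e-06) from 5.29 ± 0.566 to 12.3 ± 0.225 TPM (SD, n = 3), and FAS, a death receptor whose exons overlap those of ACTA2 on the opposite strand, rose by 0.88. The change of ACTA2 was close in size to that of IFIT5. LIPA, a lysosomal lipase, lies among the IFIT genes and rose by only 0.28. KIF20B, a mitotic kinesin, fell by 0.68 on the log2 scale (standard error 0.0444, adjusted p = 9.85e-08), and PANK1 did not pass the test.

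Of 9 neighbours of the IFITM cluster, 8 were tested, with 4 higher, 3 lower and a median of 0.17, and 0 rose by at least 1. These counts stand beside the same 23.2% higher and 23.4% lower, and 1.62% higher by at least 1, among all genes, so with so few neighbours nothing particular to the flanks is read from them. The largest change among them was that of SIGIRR, an inhibitor of interleukin receptor signalling, at 0.43 (standard error 0.0637, adjusted p = 0.000133), close to the 0.44 of IFITM2. PSMD13, a proteasome subunit, had the lowest value, -0.37 (standard error 0.0377, adjusted p = 5e-06). On log2(TPM + 1), limma called 2 of the 8 higher and 1 lower. Both clusters had neighbours called higher and neighbours called lower.

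**Figure D5:**
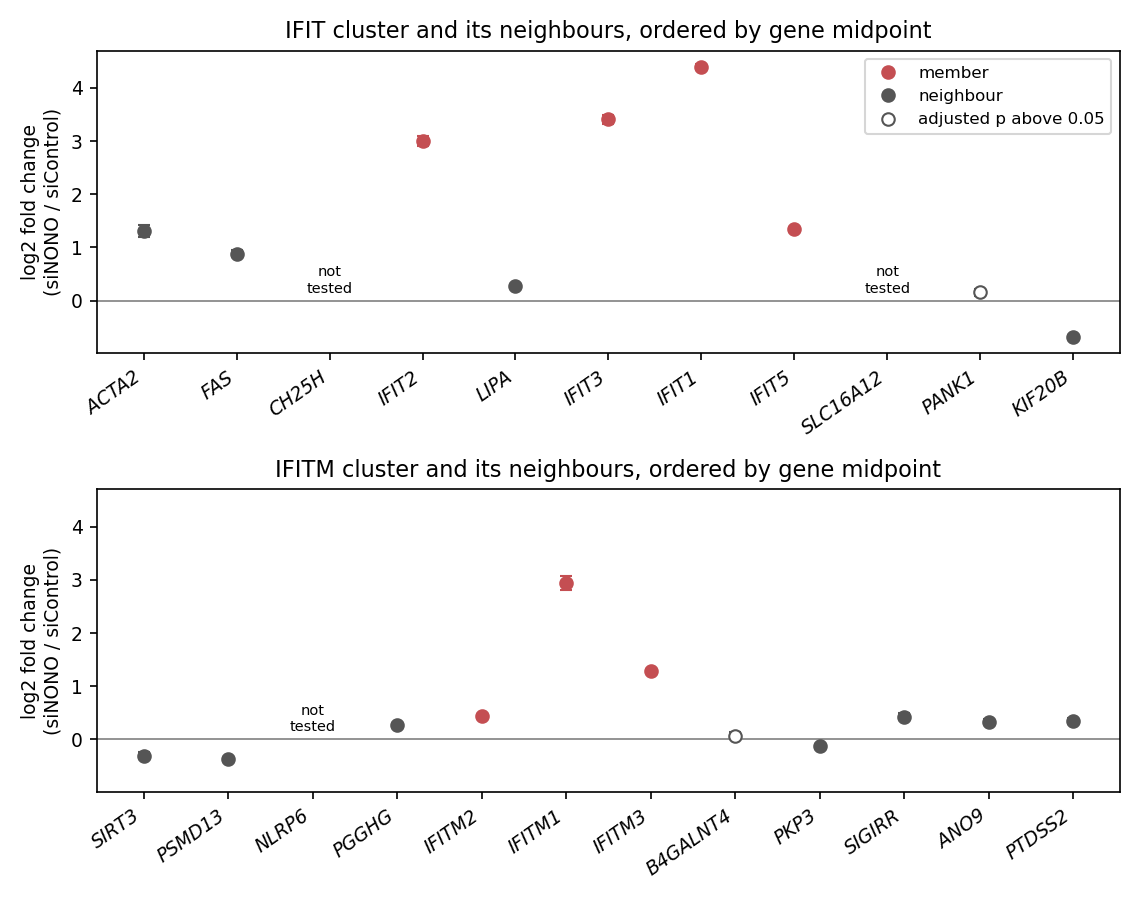
Log2 fold change with its standard error (siNONO over siControl) for the members (red) and the neighbouring genes (grey) of both clusters, ordered by the midpoint of each gene; open points did not pass an adjusted p of 0.05. IFIT2, IFIT3 and IFIT1 stand above all their neighbours, IFIT5 lies near ACTA2, and IFITM2 lies near SIGIRR.

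For each member with a log2 fold change of at least 1, the 2 other genes with the most similar log2 ratios within the 3 Sets were found among 13283 candidates, by root mean square distance on the log2 scale. OASL and IFI44 were nearest to IFIT1, at distances of 0.371 and 0.377. ISG15 (0.108) and IRF7 (0.149) were nearest to IFIT2, and BATF2 (0.200) and LAMP3 (0.292) to IFIT3. PARP9 (0.261) and RIGI (0.281) were nearest to IFITM1. The distances were shorter for the members with smaller changes, with LAP3 (0.0484) and PLEKHA4 (0.0696) nearest to IFIT5 and WNT9A (0.0281) and PLEKHA4 (0.0483) nearest to IFITM3. These distances describe 3 points each and were not tested. They also depend on how many genes had changes of a similar size. By log2 fold change IFIT1 ranked 11 of 17000, against 164 for IFIT5 and 175 for IFITM3, so distances are not compared as closeness between members.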

How the data were processed

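RNA-seq of HCT116 cells was analysed for 3 siControl and 3 siNONO libraries. The authors prepared the libraries with a TruSeq Stranded mRNA kit, aligned reads with STAR to GENCODE 34 on GRCh37 and ran RSEM (version 1.3.1). They deposited an estimated count, TPM, FPKM and lengths per gene. The deposited estimated count is not normalized, and the deposited TPM is scaled for length and library size. FPKM was not used.

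Estimated counts were rounded and tested with edgeR (version 4.0.16, in its edgeR 3 form), TMM scaling, filterByExpr and a block for the Set. Benjamini-Hochberg adjustment ran over 17000 genes, with calls at an adjusted p of 0.05. Standard errors follow from each log2 fold change and its F statistic. They therefore rest on variance shared in part across genes and can be smaller than the ratios of a gene within the Sets would give. The code of the test was also run on simulated counts without a Set effect, which does not measure how the test performs on these libraries. Libraries of the same Set, as the labels number them, deviated together (correlations of 0.429, 0.259 and 0.509 over 10802 genes), although libraries of Sets 1 and 2 also correlated across, at 0.150 and 0.158. Every pair of replicates differed beyond sampling noise, with a chi-square per degree of freedom of 2.82 to 9.86, so none was counted as a repeat. The common biological coefficient of variation, a single value fitted over all genes with the Set as a block, was about 3.51%.

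The members and all gene lists were chosen with earlier results of these data known. Named by rule were the members, NONO, the highest and lowest called gene of each list with others a sentence needed, and the 2 genes nearest each member by Set ratios, among those whose average log2 CPM reached 1. Exons came from GENCODE 44 mapped to GRCh37. The alternatives tried were scaling by library size alone or by DESeq2's size factors, other filters, no block, the edgeR 4 form, DESeq2 (version 1.42.0), limma (version 3.58.1) on log2(TPM + 1) and log2(TPM + 0.1), effective length in place of length, and each library left out in turn. Protein sequences were not analysed here, and 1 gene of the signalling list is not reported here and is left out of its counts.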

Additional observations from a re-analysis of the deposited data

How the results depend on the processing

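All 7 members stayed higher, with an adjusted p of at most 0.00162, under each of the 15 alternatives run on the comparison, whose log2 fold changes ran from 3.99 to 4.48 for IFIT1, 2.58 to 3.11 for IFIT2, 2.81 to 3.54 for IFIT3, 1.17 to 1.42 for IFIT5, 2.70 to 3.21 for IFITM1, 0.38 to 0.47 for IFITM2 and 1.22 to 1.32 for IFITM3. The lowest value of all 7 members came from limma on log2(TPM + 1), a scale that understates the change of low genes but on which IFITM2 and IFITM3, which are not low, were lowest as well. Without the replicate block, 6164 genes changed in place of 7924, and of the genes that act with the members 3 were higher and 1 was lower, in place of 5 and 2. DESeq2 called 5227 genes, with 1 lower among those partners and 1 among the neighbours of the IFITM cluster. limma called 5257 genes on log2(TPM + 1) and 5250 on log2(TPM + 0.1), with 1 partner higher and, among the IFITM neighbours, 2 higher and 1 lower in both. On log2(TPM + 1) the median of all genes was -0.07, and 31.3% of the changed genes were higher (1643 higher, 3614 lower), against 49.7% by edgeR, for which the cause was not tested. The counts of the partners and of the IFITM neighbours thus moved with the tool, whereas those of the members and of the IFIT neighbours did not. Of the 19 signalling genes, limma called 7 higher on either scale, in place of 9. With each library left out in turn, the changed genes numbered from 6497 to 7653. The length difference of IFIT2 was -112 bases on effective lengths. Low siControl counts limit IFIT3 and IFITM1 most, at 82 and 56.43 in the lowest library.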

Other observations

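The files listed 17 further genes and pseudogenes whose symbols begin with IFIT or IFITM, of which none had enough counts for the test and 7 had no count in any library. Together they held 120.92 estimated counts over the 6 libraries, 0.129% of the 93712 held by the 7 members. IFIT1B, the gene that shared the most 50-base windows with IFIT1, was listed at 0 in every library, and IFITM5, a bone-specific member, at no more than 1 count. IFITM10 had 9.69, 8.6 and 3.78 estimated counts in siControl and 13.63, 9.95 and 13.27 in siNONO. The pseudogene IFITM3P2 had at most 10 counts in a library.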
